A study of Mus musculus with 64 samples.

Results

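The messenger RNAs of the proteins that make up the cytosolic ribosome were followed in mouse pancreatic tumor cells grown alone or with fibroblasts. Gene rows of the count table were taken if their symbol was that of a cytosolic ribosomal protein (Rpl, Rps or Rplp and a number, with an optional letter or copy number, leaving out the Rps6k kinases and the rows marked -ps) and if they averaged at least 5 CPM (counts scaled to a total of 1000000 per library) over all 64 libraries. The rule kept 81 of 87 matching rows, out of 39017 genes in the table. By role these were 30 proteins of the small (40S) subunit, 42 of the large (60S) subunit, the 3 proteins of the large subunit's acidic stalk, 3 paralogs (Rpl22l1, Rps27l and Rpl7l1), 2 rows that the GENCODE annotation gives as processed pseudogenes (Rps3a2 and Rps3a3), and 1 row whose symbol and identifier disagree. That last row carries the symbol Rpl24 but the identifier ENSMUSG00000022601, which GENCODE gives to Zbtb11, so its values are not those of the ribosomal protein, and 78 rows were protein-coding ribosomal protein genes. Just inside the minimum lay Rps3a2 at a mean of 6.02 CPM and Rpl22l1 at 12 CPM, and just outside it Rps12l2 at 0.243 CPM.

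The tumor cells were of mouse pancreatic tumors on a mixed C57BL/6 background. The 7 clonal lines (E, H and V, called group 1 from their metabolism, and K, M, N and T, called group 2) were subcloned from 1 tumor of a Trp53+/R172H; Pdx1-Cre animal, in which a pancreatic promoter drives the recombinase, so the clones of both groups share this genotype. The KPC1 line belongs to neither group, and its labels give no alleles. Each of the 8 lines was sequenced in mono-culture and after 48 h in coculture with fibroblasts, with tumor cells then sorted on their green fluorescent protein (GFP), in 4 libraries per line and culture. Nothing states that the 4 libraries were separate cultures, so p-values over libraries measure the spread between those libraries, which may be technical.

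A ribosome carries a single copy of most of these proteins, so cells need them in nearly equal amounts, and proteins made in excess are degraded. Their messenger RNAs are among the most abundant of a growing cell. They usually begin with a C followed by a run of pyrimidines, the 5′ terminal oligopyrimidine (TOP) motif, through which growth signalling via mTOR and the La-related protein LARP1 sets how well they are translated and how long they last. Unassembled Rpl5 and Rpl11, bound to the 5S ribosomal RNA, are known to bind and restrain Mdm2, the ligase that degrades p53.

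RefSeq promoter windows (GRCm38.p6, 250 bases before to 50 after each annotated start) were matched by symbol to 58 of the 78 protein-coding genes. A run of at least 8 pyrimidines touching the annotated start within 2 bases was found in 21 of them, or 36.2%, against 7.98% of 27025 genes with a window. The letters CCGGAAG, the core that ETS factors recognise, stood on either strand in 41.4% of the matched genes and in 9.93% of all genes. AAGATGGC, the YY1 core, stood in 10.3% against 3.19%. These are descriptions of letters and not of binding, and an annotated start can lie some bases from the real one. The windows shown here run from 15 bases before the annotated start to the 15th transcribed base, 5′ to 3′, with a run of 8 or more pyrimidines in capitals. Of the genes shown, whose values are given later, 4 rose in coculture and 2 were not called. Rpl10 went the other way and has no such run. The choice favours windows with a run, so it does not show how runs go with the response. Genes that rose also included Rpl12, Rps2, Rpl27 and Rpl5, with runs of 7, 4, 3 and 1 bases.
Rps6, chr4:86857353-86857382, minus strand: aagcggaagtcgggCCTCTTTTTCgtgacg
Rpl38, chr11:114668565-114668594, plus strand: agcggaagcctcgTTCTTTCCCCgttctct
Rps18, chr17:33955651-33955680, minus strand: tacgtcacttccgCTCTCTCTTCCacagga
Rpl22l1, chr3:28805493-28805522, plus strand: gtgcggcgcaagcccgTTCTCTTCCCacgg
Rps27, chr3:90213634-90213663, minus strand: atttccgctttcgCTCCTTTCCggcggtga
Rplp2, chr7:141447636-141447665, plus strand: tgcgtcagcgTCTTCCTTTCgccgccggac
Rpl10, chrX:74270801-74270830, plus strand: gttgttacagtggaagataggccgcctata

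The libraries held 11178721 to 21333683 counts, and every one of the 64 correlated best with a library of its own line and culture. Library numbers in the labels run on without a break, and they were cut here into the first 43 (sheet A) and the last 21 (sheet B). A separate position number kept for each library starts again in the second part. What the 2 parts stand for is not stated. All 4 mono-culture libraries of K and 3 of the 4 of KPC1 were on sheet B. The cells expressed the epithelial keratins Krt8 (688 to 1280 CPM over the 8 lines in mono-culture) and Krt18 (968 to 1550 CPM), while Epcam did not pass 0.37 CPM in any line. Of 10 epithelial markers, 7 were tested over cultures, with 1 higher and 2 lower in coculture. Krt19 fell by 0.70 on the log2 scale (SE 0.119, adjusted p = 0.0024) and Krt8 by 0.51 (SE 0.219, adjusted p = 0.0809). Sox9 rose by 0.272 (SE 0.085, adjusted p = 0.026 by edgeR's quasi-likelihood test). Krt18 (0.017), Cdh1 (-0.017), Msln (-0.048) and Krt7 (-0.089) were not called. Of 6 leukocyte markers, Cd68, a lysosomal protein of macrophages, was the one tested, and it rose by 1.37 (SE 0.346, adjusted p = 0.0108), with line means of 3.91 to 18.5 CPM without fibroblasts and 11.8 to 40.5 CPM with them. The defining leukocyte gene Ptprc did not pass 0.118 CPM in any line. Of 4 endothelial markers, Pecam1 fell by 1.08 and Kdr had 1.13 (adjusted p = 0.0389 and 0.0591). Of 20 fibroblast markers, 18 were tested and 14 were higher in coculture, and the list summed to 1880 to 12000 CPM per line without fibroblasts and 3650 to 11000 CPM with them, with higher sums in 5 of 8 lines. Dcn, Fap, Postn and Thy1, picked from this list, together gave 0.0134 to 0.0743 CPM in mono-culture and 56.7 to 97.4 CPM in coculture. Most of that was Postn (38.1 to 73.5 CPM). Lum and Mfap5 did not pass 0.242 CPM in coculture in any line. Fbln1 (-0.374), Fn1 (0.34), Col5a1 (0.002) and Fbln2 (0.303) were not called. The labels do not say whether mono-cultures were sorted too.

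Ribosomal protein messenger RNA made up 3.76% to 9.91% of a library's counts. In mono-culture the 8 line means averaged 5.42% ± 0.837 (SD, n = 8 lines), from 4.01% in K to 6.83% in KPC1, and in coculture 6.14% ± 1.01 (SD, n = 8 lines). The mean was higher in coculture in each of the 8 lines, by 0.09 percentage points in T and 1.83 in E. In T this rested on a single coculture library at 6.17%. The others held 5.12% to 5.24%, below the mono-culture mean of 5.33%. In N it rested on a library at 7.09%, with the others at 5.71% to 5.88% and a mono-culture mean of 6.01%. In V the mono-culture libraries lay between 4.63% and 5.04% and the coculture libraries between 5.18% and 6.69%. In K they lay between 3.76% and 4.21% and between 4.56% and 4.95%. V and K were the lines in which the cultures did not overlap, and in the other 6 lines, E included, some libraries of the cultures overlapped. A share of counts says how the messenger RNA was composed. It does not give an amount per cell, and a change in which cells were among those sorted, fewer or more of one type, cannot be told apart from a change in these RNAs per tumor cell.

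**Figure D1:**
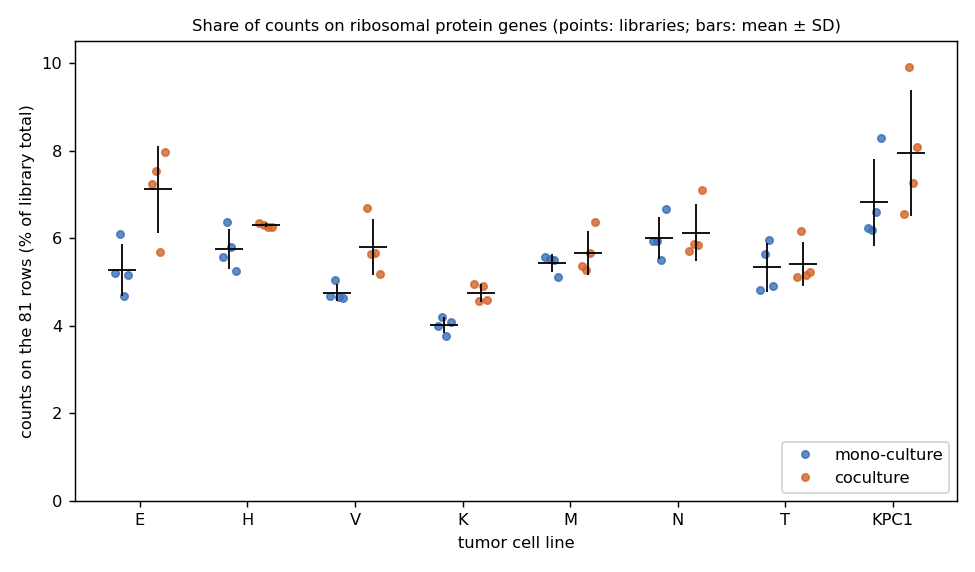
Counts on the 81 ribosomal protein gene rows as a percent of each library's total (vertical axis) for 8 tumor cell lines in mono-culture (blue) and coculture (orange); points are libraries, bars the mean ± SD of 4. K lies lowest in mono-culture at a mean of 4.01% and KPC1 highest at 6.83%, and only in V and K do the cultures not overlap.

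Levels were compared between genes as CPM per kilobase of the principal transcript, averaged over the mono-culture libraries. The protein-coding members had a median of 720 CPM per kilobase against 14.1 for other protein-coding genes. The 42 proteins of the large subunit and the 30 of the small subunit had nearly the same median, 737 and 735 CPM per kilobase. The highest was Rplp1, a protein of the stalk that recruits elongation factors, at 2313 CPM per kilobase, ahead of Rps12 at 2201 and Rps15 at 2106. The lowest were the paralogs Rpl22l1 at 19.5 and Rpl7l1 at 43.4, the 40S protein Rps15a at 70.8, whose principal transcript is given as 5179 bases, and the paralog Rps27l at 83.4 CPM per kilobase. Rpl22l1 can take the place of Rpl22 in the ribosome, and its level per kilobase stood beside 203 for Rpl22. Rps27l, a p53 target, stood beside 847 for Rps27. In the RPKM table (reads scaled to gene length and sequencing depth) the order of that pair was the other way, with a mean RPKM of 49.9 for Rps27l and 6.32 for Rps27, while Rpl22l1 again lay below Rpl22, at 3.09 against 122. Rpl3l, known from muscle, averaged 0.02 CPM, the testis gene Rpl39l averaged 0.0111 CPM, and no library held a count for Rpl10l.

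Coculture raised a large part of the set by a small amount. Over the 8 lines (counts summed per line and culture, with the line as a term), 50 of 81 rows were called higher at an adjusted p under 0.1 by edgeR's quasi-likelihood test with Benjamini-Hochberg adjustment, against 27.2% of the 14478 genes tested. Rpl10 alone was called lower, against 27.4% of all genes. The median log2 fold change of the 81 rows was 0.185 and that of all genes tested was -0.000892. A positive value was found for 77 rows, and 40 rows were above 0 in each of the 8 lines, which was the case for 14.7% of all genes. The changes called higher ran from 0.137 to 0.425 on the log2 scale with a median of 0.236, while the genes called higher in the whole table had a median of 0.459. In the same comparison 14 of 18 tested fibroblast markers, Cd68 and Sox9 rose, and Krt8 and Krt19 fell. Krt18, Cdh1, Msln and Krt7 were not called. The part of these shifts in the results was not tested. The sums of Dcn, Fap, Postn and Thy1 in coculture were 60.7 CPM in E (median response of the 81 rows 0.415), 60.8 in KPC1 (0.284), 56.7 in V (0.279) and 90.9 in K (0.200). They were 66.8 CPM in H (0.087), 97.4 in N (0.067), 83.5 in T (0.029) and 72 in M (0.026).

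**Figure D2:**
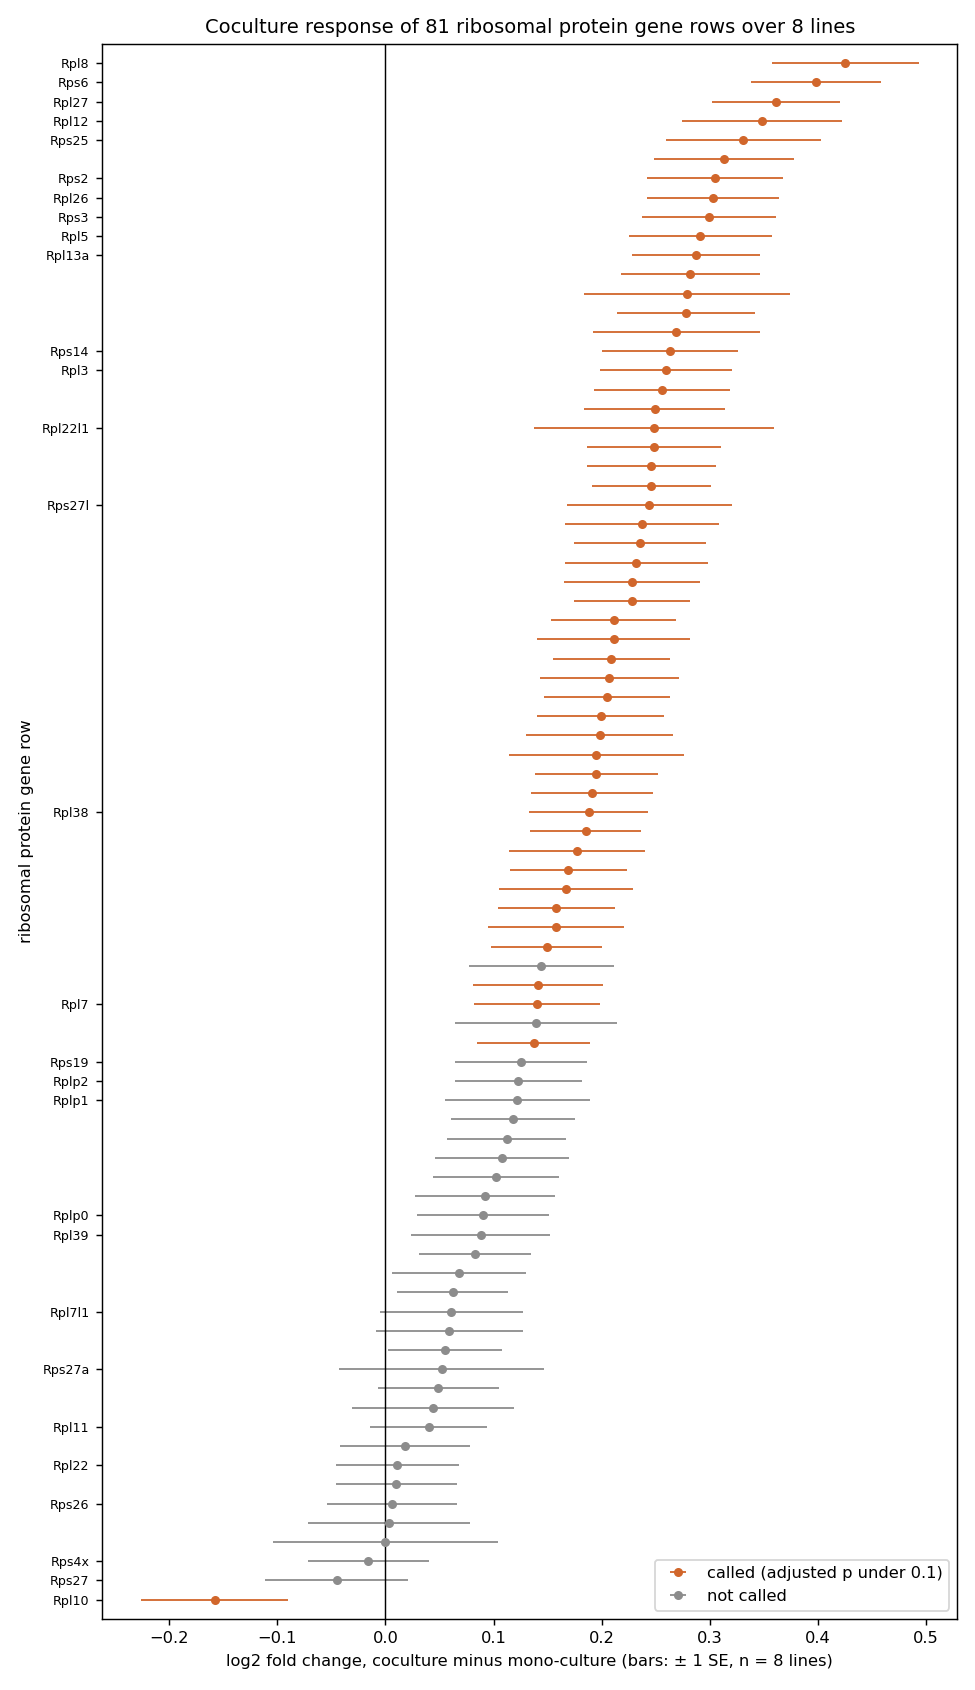
Log2 fold change between coculture and mono-culture over 8 lines (horizontal axis, ± 1 SE) for each of 81 rows (vertical axis, ordered by value, with some of the genes described in the text labelled), in orange where called at an adjusted p under 0.1. The points form an even gradient from Rpl10 at -0.158 to Rpl8 at 0.425, with 51 called.

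The clearest change was that of Rps6, the 40S protein that S6 kinases phosphorylate downstream of mTOR. Levels per library are given as CPM after TMM scaling, edgeR's correction of library size. In mono-culture the line means of Rps6 ran from 195 CPM in K to 661 CPM in KPC1, and in coculture from 255 to 903 CPM in the same lines. In V the mono-culture libraries held 334, 352, 337 and 307 CPM and the coculture libraries 550, 476, 528 and 451 CPM. In M they held 268, 251, 273 and 242 CPM and then 273, 261, 321 and 365 CPM. The libraries of the cultures did not overlap in E, H, V and K and overlapped in M, N, T and KPC1. The log2 fold change over 8 lines was 0.40 (SE 0.060, adjusted p = 0.00161 by edgeR's quasi-likelihood test), and within single lines Rps6 was called higher in 7 of 8, all but M. On log2(RPKM + 1) the fold change was smaller, at 0.208 (adjusted p = 0.044 by limma).

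Rpl8, a protein near the peptidyl transferase centre, had the largest fold change at 0.43 (SE 0.068, adjusted p = 0.00192). Its 4 libraries in V held 1190, 1200, 1200 and 1080 CPM in mono-culture and 2110, 1870, 1950 and 1680 CPM in coculture. In M, where it was not called, they held 992, 958, 1000 and 833 CPM and then 993, 958, 1140 and 1200 CPM. Rpl8 and Rps6 were the 2 rows called in 7 lines, and no row was called in 8.

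Among small subunit proteins, 19 of 30 were called higher and none lower (27.2% and 27.4% of all genes), with a median log2 fold change of 0.197. Beside Rps6, the smallest p-values included those of Rps2 (0.31, SE 0.063), a protein of the messenger RNA entry channel, Rps3 (0.30, SE 0.062), which also lines that channel and is known for roles in DNA repair, and Rps25 (0.33, SE 0.072), which several viral internal ribosome entry sites need. Rps14, whose loss in the 5q deletion of myelodysplasia impairs erythropoiesis, rose by 0.26 (SE 0.063). Rps19, mutated in many cases of Diamond-Blackfan anemia, had a value of 0.13 (SE 0.061, adjusted p = 0.119) and was not called. Rps4x (-0.016), Rps26 (0.006) and Rps27 (-0.045) lay near 0. Rps27a, which is made as a fusion with ubiquitin, had a mean of 0.052 with an SE of 0.095, the widest of the 40S proteins, from -0.30 in T to 0.55 in E.

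Among large subunit proteins outside the stalk, 27 of 42 were called higher (27.2% of all genes), with a median of 0.173. The smallest p-values after Rpl8 were those of Rpl27 (0.36, SE 0.059), Rpl26 (0.30, SE 0.061), known to bind the p53 messenger RNA, Rpl13a (0.29, SE 0.059), which is released from the ribosome in the interferon response, and Rpl12 (0.35, SE 0.074), which holds the base of the stalk. The partners of the 5S ribosomal RNA had unlike values. Rpl5 rose by 0.29 (SE 0.066, adjusted p = 0.00708), and Rpl11 had 0.040 (SE 0.054, adjusted p = 0.574). On log2(RPKM + 1) Rpl5 had 0.133 and was not called (adjusted p = 0.225 by limma). The difference between these genes was not itself tested. Rpl38, which is needed for the translation of some Hox messenger RNAs, rose by 0.19 (SE 0.055), Rpl3 by 0.26 (SE 0.061) and Rpl7 by 0.14 (SE 0.058), while Rpl22 (0.011, SE 0.057) and Rpl39 (0.088, SE 0.064) were not called.

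Rpl10, a 60S protein that joins late and lies near the site of peptide transfer, was the exception in direction. Its libraries in T held 597, 751, 764 and 679 CPM in mono-culture and 491, 553, 479 and 459 CPM in coculture. In KPC1 they held 647, 598, 652 and 764 CPM and then 687, 828, 669 and 729 CPM. The libraries did not overlap in M and T, with coculture lower, and overlapped in the other 6 lines. Over the 8 lines it fell by 0.158 on the log2 scale (SE 0.068, adjusted p = 0.0805), with lower means in 7 of 8. The call was lost in 10 of 23 alternatives that kept the direction, with fold changes of -0.165 to -0.110: at a threshold of 0.05, without a filter on low counts (adjusted p = 0.162), without replicate 3 (0.108) or 4 (0.127), on sheet A alone (0.149) and without E (0.111), H (0.180), M (0.126), N (0.180) or T (0.187). On the RPKM values the sign turned (0.061, adjusted p = 0.531). Rpl10 has near-identical copies in the genome, and reads implied by its RPKM were 0.0369 of those implied by its CPM, a ratio explained further on. Such a low ratio was not particular to Rpl10. Among genes called higher, Rps6 had 0.0238, Rpl5 0.0409 and Rpl12 0.0451, and the median of the 81 rows was 0.173.

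The 3 stalk proteins Rplp0, Rplp1 and Rplp2, which bind elongation factors, had values of 0.090 (SE 0.061), 0.12 (SE 0.067) and 0.12 (SE 0.059), and none was called. Rplp0, often used as a reference gene, held 1440, 1510, 1360 and 1460 CPM in K in mono-culture and 1800, 1650, 1680 and 1550 CPM in coculture, without overlap. In T it held 2200, 2640, 2990 and 2310 CPM and then 2210, 2360, 2050 and 2260 CPM, which overlap. Its response over lines ran from -0.19 in T to 0.27 in E.

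Of the paralogs, Rps27l and Rpl22l1 were called higher and Rpl7l1 was not (0.061, SE 0.066). Rps27l rose by 0.24 (SE 0.076, adjusted p = 0.0253), and its pattern over lines was unlike that of the set: in M its libraries held 30.5, 32.8, 31.8 and 27.2 CPM in mono-culture and 42, 41.6, 45 and 50.8 CPM in coculture, which do not overlap, and M gave its largest response (0.55) where the median of the 81 rows was 0.026. Rpl22l1 rose by 0.25 (SE 0.111, adjusted p = 0.0915). In KPC1 its libraries held 11.1, 11.7, 11.3 and 12.6 CPM and then 18.8, 36.7, 10.8 and 17.4 CPM, so that 1 coculture library gave much of the difference and another lay below all 4 mono-culture libraries. In no line were its cultures apart without overlap. Its call held in 10 of 23 alternative runs.

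Start sequence, transcript length and level of the protein-coding genes called higher were set beside those of the others as a description. A pyrimidine run at the start was found in 15 of the 36 called genes with a promoter window and in 6 of the 22 others. Rps27 and Rplp2, printed with such a run, were not called. The median transcript length was 886 bases in the called genes and 844 in the others, and the median level was 735 and 649 CPM per kilobase.

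**Figure D3:**
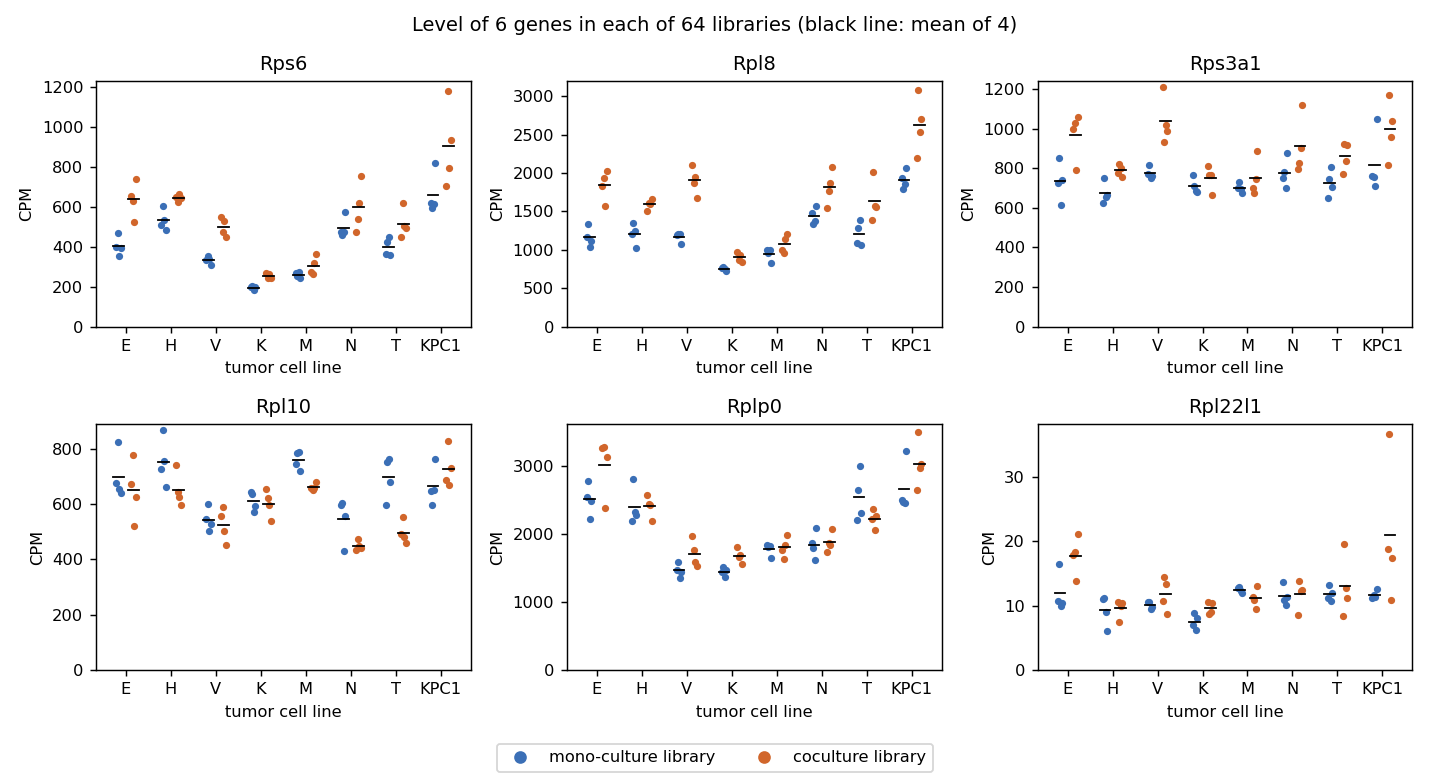
CPM (vertical axes, from 0) of 6 genes in each library of 8 lines, mono-culture in blue and coculture in orange, with the mean of 4 as a black line. Rps6 and Rpl8 are lowest in K and highest in KPC1 and have a higher mean in coculture in every line, Rps3a1 varies least between lines, and Rpl10 has a lower mean in coculture in all lines but KPC1.

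The response was uneven between lines. E had the most calls, with 71 of 81 rows higher and 1 lower against 32.1% and 29.2% of 14134 genes, and a median log2 fold change of 0.415. The lower row was the one named Rpl24. V had 55 higher and none lower (background 30% and 31.5%, median 0.279), and KPC1 had 53 higher and none lower (20.1% and 19%, median 0.284). K had 16 higher and none lower (12.5% and 8.02%) and a median of 0.200. In H 3 rows were called higher (21.4%) and none lower (22.6%), in M 2 (21.6%) and none (17.3%), and in N 4 (20%) and 1 (17.4%), with medians of 0.087, 0.026 and 0.067. T was mixed, with 6 higher (31.5%) and 9 lower (30.7%) and a median of 0.029. Some of these counts and medians turned on 1 library number. The shares of all genes called in the same direction are given in brackets. KPC1 had 3 rows (14.3%), with a median of 0.115, without replicate 2 and 34 rows (17%) without replicate 3. V had 26 (27%) without replicate 1. K had none (9.22%) without replicate 1 and 1 (8.77%) without replicate 3. T had 3 higher without replicate 2 (28.1%) or 4 (29.1%), and 1 lower without replicate 3 (26.7%) and 6 lower without replicate 4 (27.9%). M had 1 without replicate 4 (14.8%). H had between 1 and 5 (16.1% to 21.5%), and N between 0 and 2 without replicates 2, 3 or 4 (14.3% to 16.3%). The median turned to -0.064 in M without replicate 4, with 12 rows above 0 in place of 53, and to -0.018 and -0.009 in T without replicates 2 and 4, and it was 0.108 in T without replicate 3. In H it lay between 0.054 (without replicate 4) and 0.177 (without replicate 2), and in N between 0.013 (without replicate 3) and 0.114 (without replicate 1). The counts also turned on scaling, and the shares of all genes moved with them. Scaling to library totals gave 33 rows in K (15.8%), 34 in KPC1 (15%), 11 in H (23.6%), 5 in M (24.3%) and 1 in N (16.1%).

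E gave the largest response for 59 of the 81 rows, KPC1 for 10 and V for 8, while M gave the smallest for 38 and T for 35. Over the 8 lines each row's response correlated with the mean of the other rows with a median r of 0.915, and 62 rows had an r over 0.8. All rows share the same libraries and scaling factors, so this is a description of these 16 groups. The lowest r were those of the row named Rpl24 (0.247) and of Rpl7l1 (0.248). The libraries of a line did not overlap between cultures, with coculture higher, in 106 of the 648 pairs of row and line, or 16.4%, beside 18.3% over all genes. With coculture lower they did not overlap in 7 pairs, beside 16.9% over all genes.

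**Figure D4:**
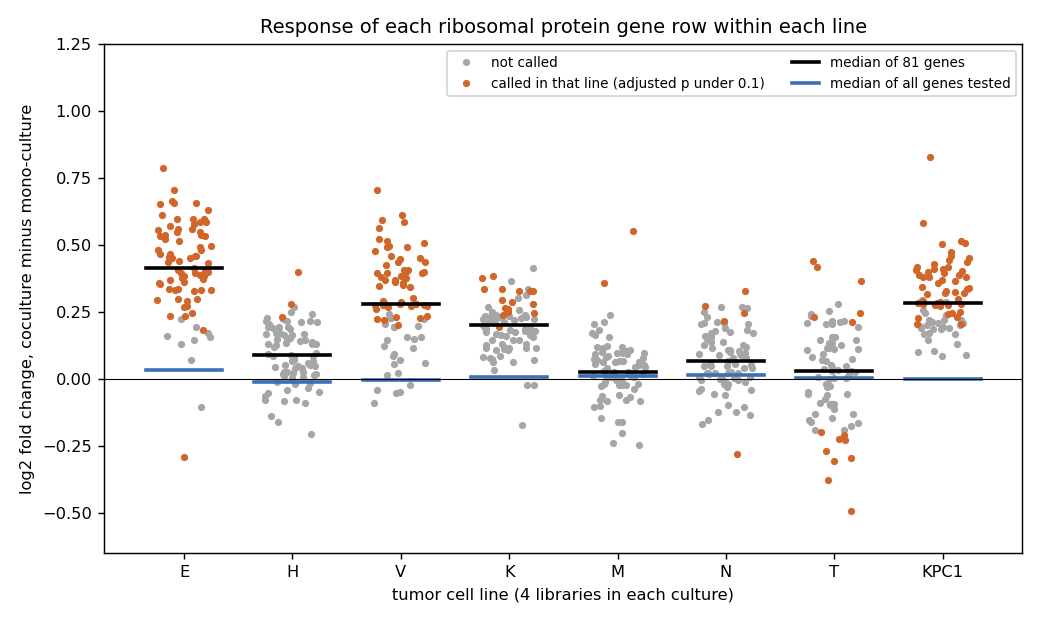
Log2 fold change between coculture and mono-culture (vertical axis) of 81 rows in each of 8 lines, in orange where called in that line, with the median of the 81 rows in black and of all genes tested in blue. The median of the rows lies at 0.415 in E, 0.284 in KPC1 and 0.279 in V and within 0.1 of 0 in H, M, N and T.

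The test of whether the response differed between lines (7 degrees of freedom) called 32 of 81 rows, against 71.3% of all genes. The count was unsteady, with 6 rows without replicate 1 (60.9% of all genes) and 20 without replicate 2 (60.2%). It was 8 rows without replicate 3 (57.4%) and 47 without replicate 4 (60%). Beside the row named Rpl24, the named members with the smallest adjusted p were Rps27a (0.00193), Rpl7l1 (0.00708), Rpl10 (0.0106) and Rpl8 (0.0175). Rps6, by contrast, was not called (0.226), with responses from 0.24 in M to 0.66 in E.

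In mono-culture all 81 rows differed between the 8 lines, as did 96.9% of 13624 genes, so the size of the differences is of more use than the count. The fold from the lowest to the highest line had a median of 1.73 in the rows, 2.25 in all genes tested and 1.9 in the 2347 other genes of at least 100 CPM. It was under 2 for 68 rows, or 84%, against 56.4% of those other abundant genes. K was the lowest line for 61 rows and KPC1 the highest for 57. By the median over rows of the deviation from the mean of the lines, KPC1 lay at 0.337 and K at -0.367 on the log2 scale, followed from above by H (0.168), N (0.137), M (0.007), T (-0.004), E (-0.078) and V (-0.154). Sheet cannot be told apart from line for K, which had no mono-culture library on sheet A. In KPC1 the share of counts was 6.6% in the library of sheet A and averaged 6.9% in the 3 of sheet B.

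Rps6 had the largest fold between lines of all 81 rows at 3.39, and its 4 libraries in K (181 to 203 CPM) lay below all others while those in KPC1 (596 to 817 CPM) overlapped the highest of H, 603 CPM. Rps3a3, annotated as a pseudogene, followed at 2.8, then Rpl8 at 2.53, Rps27a at 2.52, Rps18 at 2.43 and Rpl27 at 2.39. Except for Rps27a, which was highest in N, and Rps3a3, which was lowest in M, these were lowest in K and highest in KPC1. The steadiest were Rps3a1, whose line means lay between 672 CPM in H and 818 CPM in KPC1 (1.22-fold), Rpl34 (1.33-fold) and Rpl22 (1.34-fold). Rps3a1, a 40S protein, held 623, 751, 654 and 662 CPM in H and 760, 755, 708 and 1050 CPM in KPC1, which overlap.

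The study sorted the clones into its groups by their metabolism, and the comparison asked whether the groups also differed in these genes in mono-culture. With the clone as the replicate (3 against 4), edgeR's quasi-likelihood test called 0 of 81 rows and 0 of 14829 genes, with 1 row and 766 genes (5.17%) at an unadjusted p under 0.05. DESeq2 called 117 genes and 0 of the rows, and edgeR without clone E called 217 genes and 0 of the rows. The median log2 difference, group 1 minus group 2, was 0.0593 in the rows and -0.0132 in all genes, and it turned to -0.030 without H and -0.021 without K. The smallest p was that of Rpl37a, a zinc-binding 60S protein, for which the group 1 clones averaged 272 ± 49.4 CPM (SD, n = 3) against 367 ± 31.7 CPM (SD, n = 4) for those of group 2. Its means in the clones of group 1 ran from 226 CPM (V) through 266 CPM (E) to 325 CPM (H), those of group 2 from 322 CPM (K) through 368 CPM (T) and 388 CPM (M) to 389 CPM (N), so H lay just above K and the groups overlapped. The log2 difference was -0.44 (SE 0.169, adjusted p = 0.888). Rps7, which like Rpl5 and Rpl11 can bind Mdm2, averaged 815 ± 120 CPM (SD, n = 3) over the clones of group 1 against 620 ± 93.8 CPM (SD, n = 4) over the others (log2 difference 0.39, SE 0.184, adjusted p = 0.888). In the coculture libraries the median over rows was 0.271 and that of all genes was -0.00584. Again 0 rows were called, but so was only 1 of 14737 genes. At an unadjusted p under 0.05 by edgeR's quasi-likelihood test there were 6 rows and 1263 genes.

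Other genes of the translation apparatus were read from lists, beside 27.2% of all genes tested called higher and 27.4% called lower. Among 5 further genes of the cytosolic ribosome, 4 rose, with a median of 0.248: Gnb2l1, which encodes the scaffold Rack1 (0.27, SE 0.061), Rpsa (0.25, SE 0.058), Fau, a fusion with Rps30 (0.25, SE 0.068) and Rpl36al (0.18, SE 0.078). Of 20 other messenger RNAs known to carry the TOP motif, 15 were higher and 1 lower (median 0.162). The smallest p-values were those of Nap1l1 (0.35, SE 0.063), Eif3m (0.34, SE 0.068), Cct4 (0.55, SE 0.111) and Eif3l (0.23, SE 0.054). Eif3f was the lower one (-0.174, SE 0.071). The abundant Eef1a1 (0.055), Eef2 (0.098), Tpt1 (0.103) and Eif4b (0.013) were not called. A list of 24 translation initiation factors and regulators had 17 higher and 1 lower (median 0.256). It held the repressors Eif4ebp1 (0.75, SE 0.145) and Eif4ebp2, which bind Eif4e, and Eif4ebp2 was the lower one (-0.59, SE 0.097). The factors with the smallest p-values were the cap-binding protein Eif4e (0.53, SE 0.068), Eif3d (0.57, SE 0.086), Eif2s1 (0.55, SE 0.085) and Eif5a (0.50, SE 0.079). Mitochondrial ribosomal proteins, which serve the separate ribosome of that organelle, were higher for 36 and lower for 8 of 75 (median 0.143). The 2347 other genes of at least 100 CPM were higher for 721 and lower for 647, with a median of 0.012.

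The count table and the RPKM table placed these genes at very different levels. For each gene the reads implied by the mean RPKM and the length of all its exons were divided by the mean CPM. That ratio had a median of 0.948 in 9843 other protein-coding genes and 0.173 in the 81 rows, and it was under 0.25 for 51 rows, or 63%, against 0.925% of the others. Rps13 had the lowest ratio at 0.00941, with 341 CPM but an RPKM of 1.19, and the pseudogene row Rps3a2 the highest at 17.3, with 6.02 CPM and an RPKM of 131. In the count table the 214 ribosomal protein rows marked -ps held 0.0248% to 0.0709% of counts. The genes share sequence with their many processed copies, and how each table assigned such reads is not given in the sources used here, so the levels of single genes are uncertain. For the response, limma on log2(RPKM + 1) called 54 rows higher and none lower, against 27.3% and 22.3% of the 17029 genes tested there. By table, 47 rows were higher in both, 7 on RPKM alone and 3 on counts alone. Single genes differed: Rps27 had -0.045 on counts and 0.195 on RPKM (adjusted p = 0.0372 by limma), Rpl12 had 0.348 and 0.701 (adjusted p = 0.00378), and Rpl9 had 0.211 and 0.128 and lost its call (adjusted p = 0.175).

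**Figure D5:**
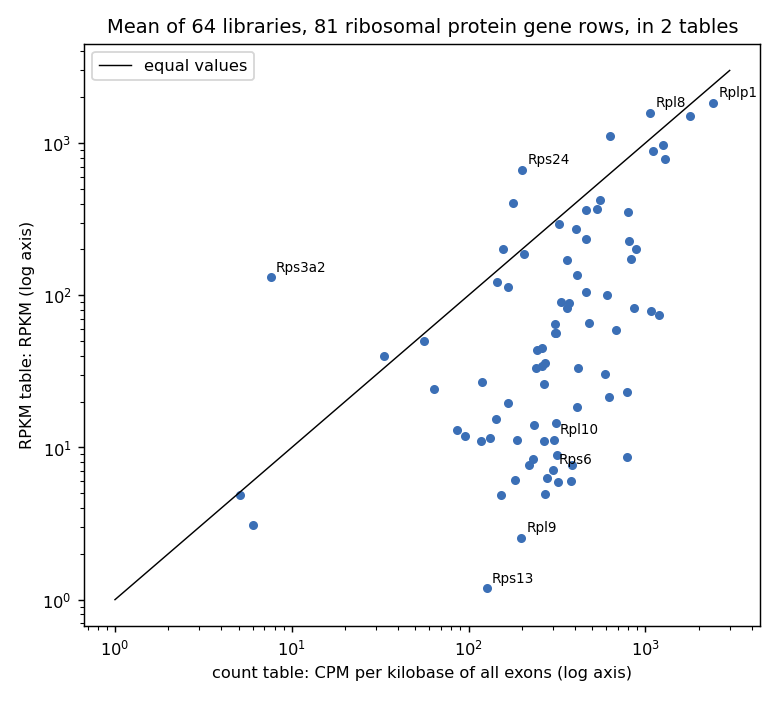
Mean over 64 libraries of each of 81 rows, as CPM per kilobase of all exons from the count table (horizontal log axis) and as RPKM from the other table (vertical log axis), with the line of equal values. Most points fall below the line, Rps13 farthest, and Rps3a2 lies above it.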

How the data were processed

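Poly(A) RNA of 64 libraries was prepared with a strand-specific kit and sequenced as read pairs. The authors deposited gene counts (featureCounts on mm10, per the labels) and, separately, RPKM values, whose normalization is for gene length and sequencing depth. The aligner and its handling of reads that match several places are not given in the sources used here. Counts were fitted here in edgeR 4.0.16 (TMM, filterByExpr, quasi-likelihood tests, Benjamini-Hochberg over all genes tested, adjusted p under 0.1), with library totals of 11178721 to 21333683 limiting precision. Over lines, libraries were summed per line and culture, and between groups per clone. Alternatives used DESeq2 1.42.0, limma 3.58.1 on log2 RPKM plus 1 or 0.1, other scalings, filters and samples. Scripts were tested on simulated data. The members and lists were chosen with earlier results of these data known. Named genes were the 10 smallest p-values each way in coculture, the 6 largest and 3 smallest folds between lines, the 3 smallest p-values between groups, the 4 highest and lowest RPKM, paralogs with their parents, and Rps6, Rpl5, Rpl11, the stalk, Rps19, Rps14 and Rpl38; Rps12, Rps15a and Rps3a2 were added after their values were seen, and some items are not reported here. Reads of near-identical copies are uncertain.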

Additional observations from a re-analysis of the deposited data

Results flagged for a closer look

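In 16 groups of 4 libraries, 4 had a library whose share of counts on ribosomal protein genes stood far from the other 3, where chance gives about 1 in 20. These were V mono-culture replicate 2 (5.04%, the others 4.63% to 4.68%), M mono-culture replicate 4 (5.12%, the others 5.5% to 5.56%), N coculture replicate 4 (7.09%, the others 5.71% to 5.88%) and T coculture replicate 2 (6.17%, the others 5.12% to 5.24%). All 4 libraries were on sheet A.

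Of 80 measures of named genes over the 8 lines, 2 had a line far from the rest. The mono-culture level of Rpl34 in KPC1 was 487 CPM, with 366 to 412 CPM in the other lines, and there 1 library of 654 CPM stood above 3 of 426 to 436 CPM. The coculture response of Rps25 in E was 0.786 on the log2 scale, with 0.166 to 0.435 elsewhere.

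The response differed between lines, by the test of the difference itself, for 18 of 40 named rows, beside 71.3% of all 14134 genes tested. The adjusted p-values of edgeR's quasi-likelihood test were 9.99e-05 for the row named Rpl24, which carries the identifier of Zbtb11, 0.00193 for Rps27a, 0.00708 for Rpl7l1, 0.0106 for Rpl10, 0.0175 for Rpl8, 0.0322 for Rps2, 0.0353 for Rplp1, 0.0447 for Rps26 and 0.062 for Rplp0. They were 0.0666 for Rpl22l1, 0.0745 for Rpl12, 0.0764 for Rpl9, 0.0797 for Rplp2, 0.0813 for Rps25, 0.0824 for Rps4x, 0.0901 for Rpl22, 0.0921 for Rps15 and 0.0931 for Rpl3. The count of such rows changed strongly when a replicate number was left out, as given above.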

How the results depend on the processing

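The count of 50 rows higher in coculture lay between 43 and 64 over 23 alternatives, with a median log2 fold change of 0.147 to 0.212, and the 81 rows that differed between lines numbered 78 to 81 in the alternatives run for them. Rows whose response differed between lines numbered 32 (71.3% of all genes), and 17 without a filter on low counts (36.8%) and 18 at a threshold of 0.05 (63.9%). Without a replicate number they were 6 to 47 (57.4% to 60.9%), and the cause was not tested. Nothing states whether same-numbered libraries of a line were paired, and the main fits did not use the number. Their deviations correlated at -0.107 to 0.44 (median 0.206, 22 of 32 pairs over 0.1). Of the 32 mono-culture libraries, 23 were closest to the coculture library of their own number, so a shared replicate effect is possible. With the replicate number as a block, libraries in place of sums gave 64 rows higher and 1 lower in coculture, beside 37% and 38% of all genes. They gave 11 rows between groups (6 higher and 5 lower in group 1, with 29.3% of all genes called), where libraries and not clones are the units. With the block 53 rows differed in response between lines (75.4% of all genes) and 81 between lines in mono-culture (97.2%). Rows called higher within a line went from 3 to 12 in H (23.8% of all genes), 4 to 9 in N (22.9%), 6 to 10 in T (32.7%) and 16 to 25 in K (15%). With the sheet as a term K had 7 (12.3% of all genes) and KPC1 40 (17%) in place of 53. Without a filter K had 8 (6.02% of all genes), and T had 4 lower (16.1%) in place of 9.

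Signs turned for rows near 0 and for Rpl10. On RPKM plus 1 and plus 0.1, Rpl10 had 0.061 and 0.066, Rps13 -0.037 and -0.069, Rps27 0.195 and 0.223, Rps4x 0.007 in both, and the row named Rpl24 0.045 and 0.055. Leaving out a replicate or line gave Rpl22 -0.009 to 0.044 (-0.001 without KPC1), Rps26 -0.025 to 0.045 (-0.008 on sheet A alone), Rps27a -0.018 to 0.102, Rps4x -0.041 to 0.010, and Rpl24 -0.039 to 0.048. That row also had 0.003 by RLE scaling, by DESeq2 and with pseudogene rows joined to their parents, an alternative chosen after seeing the data, 0.002 with scaling factors from other genes, 0.011 without a filter, 0.004 with the replicate block and 0.097 on sheet A. Calls of the 25 named rows called in coculture held in 541 of 575 runs. Rpl7 lost its call in 5 of 23 runs, and Rplp2, Rps19 and Rpl39 gained one in 6, 5 and 3. Of the 81 rows, Rps3a2 (6.02 CPM) and Rpl22l1 (12 CPM) had the lowest mean counts.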

Other observations

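The identifier that GENCODE gives to Rpl24, ENSMUSG00000098274, is present in the count table under the symbol RPL24 in capitals, which the rule did not match. It averaged 3.13 CPM, with line means of 2.58 to 3.78 CPM in mono-culture and 2.4 to 3.86 CPM in coculture, far below every protein of the large subunit described above, and its log2 fold change in coculture was -0.151 (SE 0.103, adjusted p = 0.253 by edgeR's quasi-likelihood test). The row named Rpl24 averaged 37.9 CPM.

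Rows that matched by symbol but not by level were Rps12l1 (0.236 CPM, at most 9 counts in a library), Rps12l2 (0.243 CPM, at most 9 counts), Rpl3l (at most 2 counts) and Rpl39l (at most 3 counts). Rps4y2 and Rpl10l had 0 counts in each of the 64 libraries.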
